A study of Homo sapiens with 9 samples.

Results

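Cap-dependent translation in the cytoplasm was examined at the level of the RNAs that encode its first factors. The set held 10 listed genes: the cap-binding proteins EIF4E, EIF4E2 and EIF4E3, the eIF4E-binding proteins EIF4EBP1, EIF4EBP2 and EIF4ENIF1, the scaffolds EIF4G1, EIF4G2 and EIF4G3, and the helicase EIF4A1. The list names the genes and uses no measured value, but it was chosen with earlier results of these data known. Symbols were matched through Ensembl identifiers. All 10 genes were present among the 60609 identifiers counted, and all 10 were among the 21682 genes that passed the filter on low counts and were tested.

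Total RNA after removal of ribosomal RNA was sequenced from U2-OS cells, an established human osteosarcoma line. Clones A1 and A4 overexpress NCBP2, which contacts the cap in the nuclear cap-binding complex, and each gave 3 libraries (replicates A, B and C), so that 6 libraries formed the NCBP2 arm. The 3 vector libraries (replicates A, B and C) came from 3 clones, 1 library each, that carry an empty vector and were obtained in the same way. Whether libraries of the same clone came from separate cultures is not stated in the labels, so p-values measure only the spread between these libraries, and each clone is 1 independent line. The question put to the data was whether the RNAs of the cytoplasmic cap-binding factors differ in level where the nuclear cap-binding protein is in excess. The effect of NCBP2 and the individual history of clone A1 or A4 cannot be told apart within 1 clone.

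The methylated cap of a new transcript is bound in the nucleus by NCBP2 together with NCBP1, and in the cytoplasm by eIF4E. With the scaffold eIF4G and the helicase eIF4A, eIF4E forms eIF4F, the complex that brings the small ribosomal subunit to the mRNA. The eIF4E-binding proteins hold eIF4E away from eIF4G until the kinase mTORC1 phosphorylates them, and this step is a known point of growth control in tumour cells.

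Counts assigned to genes on their own strand were fewest in clone A1 replicate A (29234022) and most numerous in vector replicate B (50554080). Reads not assigned to a gene made up 44.5% (vector replicate B) to 63.6% (clone A1 replicate A) of a library. Clone A1 replicate A stood apart, with a median correlation across genes of 0.922 with the other libraries, against 0.953 to 0.966 for the others. NCBP2, given as CPM (counts relative to each library's TMM-scaled total in genes, edgeR's cpm), was 298.9 to 348.4 in clone A1, 456.2 to 1035 in clone A4 and 90.6 to 98.4 in vector. It rose in clone A1 (log2 fold change 1.73, SE 0.242, adjusted p 0.0327) and in clone A4 (2.99, SE 0.254, adjusted p 0.000417) by edgeR's quasi-likelihood test with Benjamini-Hochberg adjustment. In the NCBP2 arm as a whole it was 2.50 (adjusted p 0.123 by edgeR), and the call in clone A1 was lost when any of 6 single libraries was left out and with unstranded counts (1.44). DESeq2 called NCBP2 in the arm (2.50, adjusted p 5.03e-08 by DESeq2) and in clone A1 (1.74, adjusted p 3.21e-07 by DESeq2). It passed the threshold under 9 of 16 alternative analyses in clone A1, 16 of 16 in clone A4 and 1 of 16 in the arm. Of the bone-line markers, RUNX2 lay between 182.4 and 294 CPM in all libraries, whereas SP7 and BGLAP had at most 1 count and IBSP had none. The summed CPM of the 9 bone-line markers was 2170 to 2763 in clone A1, 3025 to 3739 in clone A4 and 3064 to 3942 in vector. Most of it was SPARC (1398 to 2250 CPM) and COL1A1 (532.2 to 1883 CPM). COL1A2, ALPL and SPP1 were at most 1.15, 4.12 and 2.07 CPM. The summed CPM of 4 epithelial markers was 79.3 to 150 in clone A1, 75.4 to 103.9 in clone A4 and 120 to 215.3 in vector, mostly KRT8 and KRT18, and blood markers summed to at most 2.01. The part of these marker differences in the results on eIF4F genes was not tested.

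No member of the set passed the threshold (adjusted p under 0.05) in any of the 4 comparisons made with edgeR's quasi-likelihood test. In the NCBP2 arm against vector, 0 of 10 were called, beside 0.0184% of all genes tested (4 genes). In clone A1 against vector, 0 of 10 were called, beside 0.0646% (14 genes). Clone A4 against vector had 0 of 10 called, beside 0.115% (25 genes), and clone A4 against clone A1 had 0 of 10, beside 0.161% (35 genes). With so few calls over the whole table, a count of 0 among 10 genes is what the background gives. DESeq2 also called 0 of 10 in each comparison. The first 3 comparisons share the vector libraries.

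At an unadjusted p under 0.05, 1 member was found in the NCBP2 arm against vector, beside 5.71% of all genes. The member was EIF4EBP2, and with counts summed per clone 0 members were found at this p. In clone A1 against vector there were 2 members, EIF4EBP2 and EIF4ENIF1, beside 7.51% of all genes. There were 0 members in clone A4 against vector, beside 5.25%, and 0 in clone A4 against clone A1, beside 6.63%. The median log2 fold change over the 10 members was -0.17 in the NCBP2 arm, -0.16 in clone A1 and -0.09 in clone A4 against vector, beside 0.02, -0.02 and 0.03 over all genes tested. In each of these 3 comparisons, 7 members had a negative value and 3 a positive one, and between the clones (clone A4 minus clone A1) the median was -0.04 beside 0.04.

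**Figure D1:**
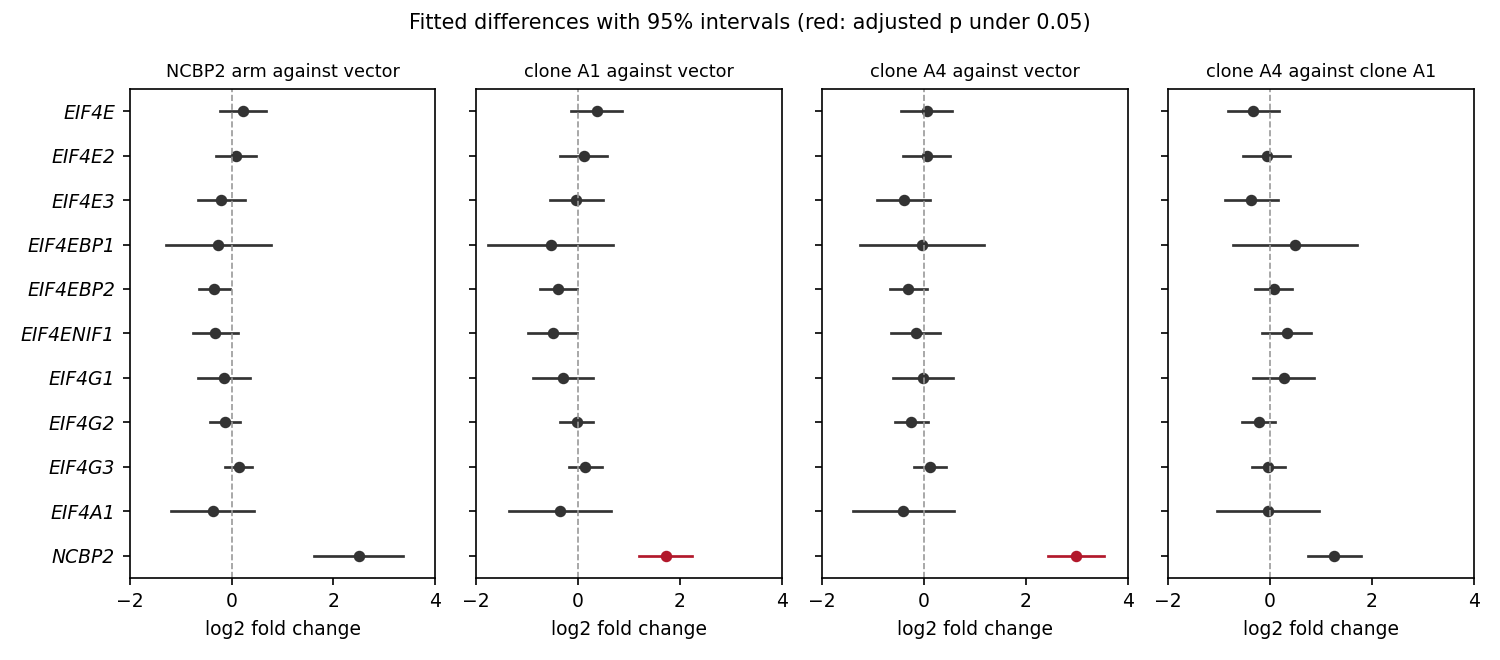
Fitted log2 fold change (x axis) of the 10 members and of NCBP2 in the 4 comparisons, 1 panel each, as points with 95% intervals from edgeR; red marks adjusted p under 0.05. All member intervals are drawn dark and most cross 0, the exceptions being EIF4EBP2 in the NCBP2 arm and in clone A1 and EIF4ENIF1 in clone A1; NCBP2 is red in clones A1 and A4 against vector.

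The width of the intervals limits what these data could show. The intervals of the NCBP2 arm take 6 libraries of 2 clones as separate samples, so they measure only the spread between libraries. For EIF4G3 the interval in the NCBP2 arm against vector ran from a 0.917-fold to a 1.33-fold level, and for EIF4G2 from 0.745-fold to 1.12-fold. For EIF4E it ran from 0.856-fold to 1.6-fold. For EIF4EBP1 it ran from 0.408-fold to 1.71-fold, and a change of 1.5-fold in either direction lies within it. With counts summed per clone, the SE on the log2 scale was larger for EIF4G3 (0.16 against 0.123), EIF4G2 (0.154 against 0.137) and EIF4E (0.275 against 0.21). For EIF4EBP1 it was smaller (0.255 against 0.48). In bulk libraries such as these, less RNA of a gene per cell and fewer cells that express it cannot be told apart.

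Values of single libraries are given in the order of replicates A, B and C of each group. EIF4E (ENSG00000151247.12, chromosome 4 at 98879276 to 98929133, minus strand, GRCh38) is the factor that binds the cap and eIF4G to start translation. It stood at 133, 97.4 and 116.9 CPM in the clone A1 libraries, at 105.5, 93.6 and 79.7 CPM in those of clone A4, and at 95.5, 58.9 and 112.8 CPM in those with the empty vector. Vector replicate B was the lowest of the 9 libraries and clone A1 replicate A the highest, and the 3 groups overlapped. Group means were 115.8 ± 17.9 CPM (SD, n = 3) in clone A1, 93.0 ± 12.9 in clone A4 and 89.1 ± 27.5 in vector. The fitted log2 difference from vector was 0.38 (95% interval -0.12 to 0.88) in clone A1 and 0.06 (-0.44 to 0.56) in clone A4, with adjusted p 0.764 and 1 by edgeR. The difference of clone A4 from clone A1 was -0.32 (-0.82 to 0.19, adjusted p 0.831 by edgeR). All 3 intervals included 0. The ratio of EIF4E to NCBP2 counts was 0.923 ± 0.252 (SD, n = 3) in vector, 0.3695 ± 0.0837 in clone A1 and 0.133 ± 0.0421 in clone A4, with no overlap of the 3 ranges. The CPM of NCBP2, the denominator, separated the 3 groups by itself, while the CPM of EIF4E overlapped in all groups.

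The promoters of EIF4E and of its scaffold partner EIF4G1 each held the hexamer CACGTG, an E-box that MYC and related factors can bind. They are shown because these core genes of eIF4F were the only ones of 9 members with a window that held it, and because their levels are set against each other in the libraries. The windows are the 250 bases before RefSeq transcript starts (GRCh38.p14), and the hexamer, a palindrome that reads the same on both strands, was chosen after the sequences had been seen. Capitals mark the hexamer in 30 bases on the strand of the gene. The EIF4E sites begin 225 and 72 bases before the start, at chr4:98929341-98929370 and chr4:98929188-98929217 on the minus strand. The EIF4G1 sites begin 144 and 67 bases before the start, at chr3:184314450-184314479 and chr3:184314527-184314556 on the plus strand.
EIF4E, distal site: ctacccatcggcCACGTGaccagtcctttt
EIF4E, proximal site: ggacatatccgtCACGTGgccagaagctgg
EIF4G1, distal site: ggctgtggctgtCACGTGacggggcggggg
EIF4G1, proximal site: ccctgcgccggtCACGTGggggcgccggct
Over 35116 promoter windows of the same length, 6.345% held the hexamer at least once and 0.535% at least 2 times. Among the 16 windows of 9 members, 2 windows held it, each 2 times. A match of letters is not a measured binding site, and binding was not measured here.

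EIF4E2, a cap-binding relative known for repressing translation of selected mRNAs, stood at 35.9, 39.4 and 47.8 CPM in the clone A1 libraries, at 32.8, 40.6 and 44.9 CPM in those of clone A4, and at 32.5, 47.2 and 33.7 CPM in those with the empty vector. The 3 groups covered nearly the same range, and the fitted log2 difference in the NCBP2 arm was 0.09 (95% interval -0.30 to 0.48). EIF4E3, a relative that contacts the cap in a different way, stood at 58.6, 46.3 and 39.4 CPM in the clone A1 libraries, at 40.9, 43.95 and 27.5 CPM in those of clone A4, and at 50.1, 38.3 and 58.9 CPM in those with the empty vector. The lowest EIF4E3 value was that of clone A4 replicate C, and clone A4 overlapped with vector only through vector replicate B. By edgeR's fit, the log2 difference of EIF4E3 in clone A4 against vector was -0.39 (-0.91 to 0.13, adjusted p 1 by edgeR).

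The ratio of EIF4E3 to EIF4E counts was 0.566 ± 0.0738 (SD, n = 3) in vector, 0.418 ± 0.0722 in clone A1 and 0.401 ± 0.0631 in clone A4. It ran from 0.5215 to 0.651 in vector, above the ranges of 0.337 to 0.476 in clone A1 and 0.345 to 0.469 in clone A4. No test was made of this ratio, which was among 10 ratios computed for pairs of genes. The share of other gene pairs that separate in this way was not computed. Neither EIF4E nor EIF4E3 alone separated any of the groups by CPM. The ratio of EIF4E2 to EIF4E counts overlapped among all groups, at 0.299 to 0.801 in vector, 0.270 to 0.409 in clone A1 and 0.311 to 0.564 in clone A4.

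The eIF4E-binding proteins held the member with the smallest p. EIF4EBP2 (ENSG00000148730.7, chromosome 10 at 70404145 to 70428618, plus strand) is one of the repressors that compete with eIF4G for eIF4E. It stood at 153.3, 188 and 176.8 CPM in the clone A1 libraries, at 165.3, 219.4 and 163.4 CPM in those of clone A4, and at 224.5, 244.8 and 204 CPM in those with the empty vector. All 3 clone A1 libraries lay below all 3 vector libraries, whereas clone A4 replicate B lay between vector replicates A and C. The means were 172.7 ± 17.7 CPM (SD, n = 3), 182.7 ± 31.8 and 224.4 ± 20.4 in clone A1, clone A4 and vector. The fitted log2 difference was -0.34 (SE 0.141, 95% interval -0.64 to -0.03) in the NCBP2 arm, with an unadjusted p of 0.0325 and an adjusted p of 0.812 by edgeR. In clone A1 it was -0.38 (-0.74 to -0.01, adjusted p 0.647 by edgeR) and in clone A4 -0.30 (-0.66 to 0.07, adjusted p 1 by edgeR). Both clones thus had a negative value, each against the same vector libraries. Over the 16 alternative analyses, the value in the NCBP2 arm stayed negative, between -0.42 and -0.22, with adjusted p between 0.6 and 1. Counts summed per clone, which make each clone 1 sample, gave -0.34 (SE 0.166, unadjusted p 0.0727 by edgeR). With the share of reads not assigned to a gene as a covariate, an alternative chosen after the data were seen, the value was -0.22. The r of EIF4EBP2 with that share was -0.70 over the 9 libraries (Spearman's rho -0.75). It was -0.22 over 7 libraries without clone A1 replicate A and vector replicate B. Those 2 libraries hold the highest and the lowest share, so leaving them out narrows its range and cannot show whether the relation rests on them.

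EIF4EBP1, the best-studied of these repressors, was the most variable member. It stood at 2.50, 12.3 and 19.2 CPM in the clone A1 libraries, at 13.9, 8.37 and 26.02 CPM in those of clone A4, and at 16.6, 19.4 and 13.3 CPM in those with the empty vector. Clone A1 replicate A, the library that stood apart, was the lowest with 71 counts, and clone A4 replicate C was the highest with 1162. The highest value was 10.4 times the lowest, and 3.11 times without clone A1 replicate A. The SD of log2 CPM over the 9 libraries was 0.98, above that of 77.0% of genes tested, and 0.50 without clone A1 replicate A. By edgeR's fit, the log2 difference of EIF4EBP1 in the NCBP2 arm was -0.26 (95% interval -1.29 to 0.78).

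EIF4ENIF1 (ENSG00000184708.18, chromosome 22 at 31436977 to 31496108, minus strand) encodes the 4E-T protein, which carries eIF4E into the nucleus and acts in mRNA repression. It stood at 22.2, 39.6 and 39.2 CPM in the clone A1 libraries, at 41.7, 40.2 and 45.3 CPM in those of clone A4, and at 46.6, 51.3 and 44.2 CPM in those with the empty vector. All clone A1 values lay below all vector values and below all clone A4 values, and clone A4 overlapped with vector. The fitted log2 difference in clone A1 against vector was -0.49 (SE 0.222, 95% interval -0.97 to -0.01), with an unadjusted p of 0.0465 and an adjusted p of 0.66 by edgeR. Without clone A1 replicate A it was -0.26 (edgeR's adjusted p 0.993). EIF4ENIF1 overlaps SFI1 and a further gene on the opposite strand over 529 exon bases, and 18.4% to 37% of the stranded counts at the gene were on the opposite strand, the highest share being that of clone A1 replicate A.

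**Figure D2:**
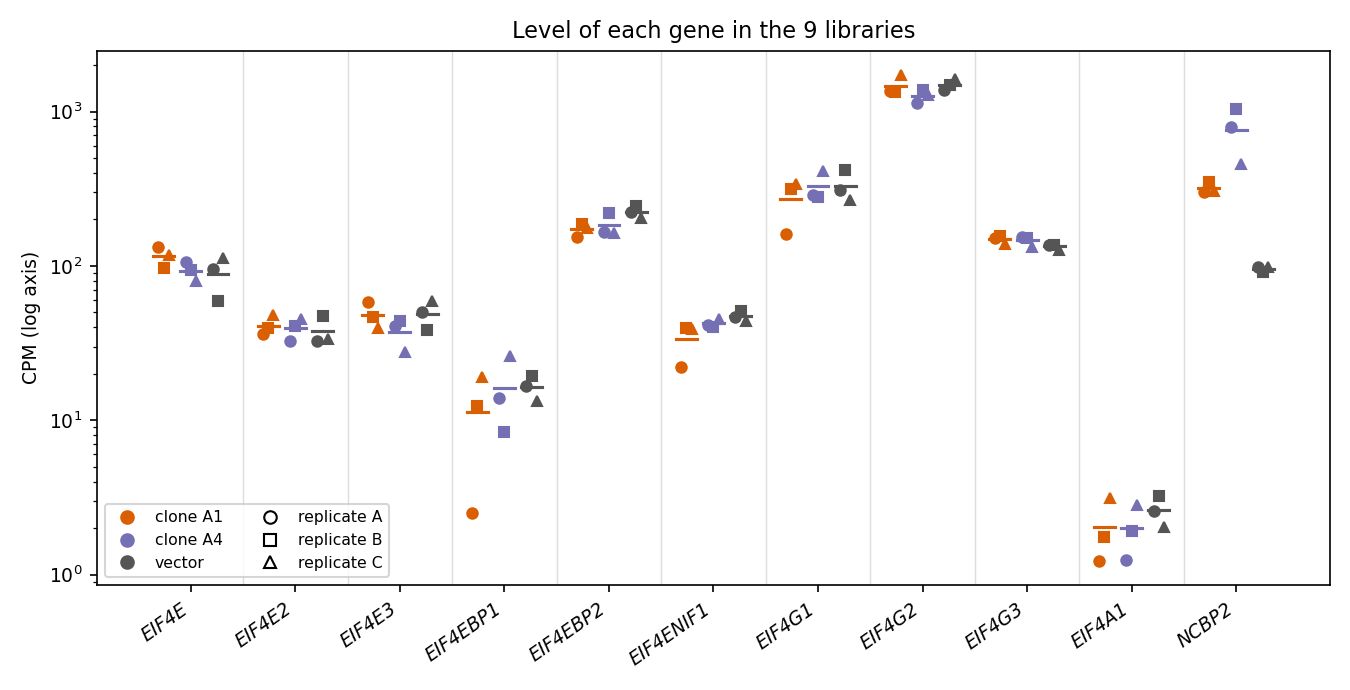
CPM (log axis) of each member and of NCBP2 in the 9 libraries, coloured by group and shaped by replicate letter, with a bar at each group mean (3 libraries). The groups overlap for most members; clone A1 replicate A is low for EIF4EBP1 (2.50 CPM), EIF4ENIF1 (22.2 CPM) and EIF4G1 (160.7 CPM), and NCBP2 separates the 3 groups.

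EIF4G1 (ENSG00000114867.20, chromosome 3 at 184314495 to 184335358, plus strand) encodes the main scaffold that joins eIF4E, eIF4A and the ribosome. It stood at 160.7, 313 and 340 CPM in the clone A1 libraries, at 289.4, 281.2 and 414.4 CPM in those of clone A4, and at 311.4, 414.8 and 266.2 CPM in those with the empty vector. The lowest library was again clone A1 replicate A, and the highest, clone A4 replicate C and vector replicate B, lay within 1 CPM of each other although they belong to different arms. By edgeR's fit, the log2 difference was -0.14 (95% interval -0.65 to 0.37) in the NCBP2 arm, -0.29 (-0.88 to 0.30) in clone A1 and -0.01 (-0.60 to 0.58) in clone A4. The SD of EIF4G1 in clone A1 was 96.7 CPM (n = 3), and 19.0 CPM (n = 2) without replicate A. Without that library the log2 difference of EIF4G1 in clone A1 was -0.01 (adjusted p 1 by edgeR), and without vector replicate B it was -0.09 (adjusted p 1 by edgeR).

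EIF4G2, a scaffold that lacks the eIF4E-binding site and works in cap-independent or alternative initiation, stood at 1348, 1345 and 1723 CPM in the clone A1 libraries, at 1142, 1375 and 1272 CPM in those of clone A4, and at 1379, 1493 and 1614 CPM in those with the empty vector. All 3 clone A4 values lay below all vector values, by 4 CPM at the closest, and clone A1 spanned the vector range. The fitted log2 difference in clone A4 against vector was -0.24 (95% interval -0.57 to 0.08, adjusted p 1 by edgeR). EIF4G3, a second eIF4E-binding scaffold, stood at 151.1, 156.8 and 138.5 CPM in the clone A1 libraries, at 154.6, 151.1 and 132.4 CPM in those of clone A4, and at 137.4, 136.4 and 127.4 CPM in those with the empty vector. All clone A1 values lay above all vector values, and clone A4 replicate C lay within the vector range. By edgeR's fit, the log2 difference of EIF4G3 was 0.15 (-0.16 to 0.47, adjusted p 0.848 by edgeR) in clone A1 and 0.13 (-0.19 to 0.44, adjusted p 1 by edgeR) in clone A4.

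Groups that do not overlap by CPM were counted for each comparison. In the NCBP2 arm against vector, 0 of 10 members did not overlap, beside 3.74% of all genes. For clone A1 against vector, 3 of 10 did not overlap, beside 14.2% of all genes: EIF4G3 was higher (6.18% of all genes), and EIF4EBP2 and EIF4ENIF1 were lower (8.06%). Clone A4 against vector had 1 of 10, beside 12.1%, with EIF4G2 lower (5.86%). Clone A4 against clone A1 had 1 of 10, beside 13.6%, with EIF4ENIF1 higher (7.92%). At those shares of all genes, 1 or 2 of 10 genes would not overlap in each comparison with a clone, beside the 3, 1 and 1 found. The separations of EIF4G3 in clone A1, EIF4G2 in clone A4 and EIF4ENIF1 between the clones were lost when CPM was computed without TMM scaling, and those of EIF4EBP2 and EIF4ENIF1 in clone A1 were kept. EIF4G3 in clone A4 did not overlap with vector on that unscaled scale.

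EIF4G3 had the steadiest level of the set. The SD of its log2 CPM over the 9 libraries was 0.11, below that of all but 0.604% of genes tested, whereas the median gene had 0.50. EIF4G2 followed with 0.18, below which lay 6.75% of genes. The SD of EIF4E was 0.34 and that of EIF4G1 0.41, both under the median gene over the 9 libraries. Within groups, EIF4E had 0.49 in vector beside a median of 0.39, and EIF4G1 had 0.59 in clone A1 beside 0.44. In the remaining groups each was under the median. Such spread includes counting error, which was small for EIF4G3 with 4293 to 7370 counts a library and for EIF4G2 with 38304 to 76523. The genes tested were not matched to the members for level, and counting error is larger in those with few counts.

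Levels were compared between genes per kilobase of exon in the vector libraries, with the union of all annotated exons as the length. On this scale EIF4G2 was highest, at 176.3 ± 13.9 CPM per kilobase (SD, n = 3). EIF4G1 (37.8 ± 8.70) and EIF4EBP2 (29.96 ± 2.73) came next and overlapped, followed by EIF4EBP1 (18.7 ± 3.46) and EIF4E (17.9 ± 5.54), which overlapped as well. EIF4G3 (11.25 ± 0.461) and EIF4ENIF1 (7.76 ± 0.592) stood apart from their neighbours, EIF4E3 (4.54 ± 0.953) and EIF4E2 (3.29 ± 0.710) overlapped, and EIF4A1 was last at 0.503 ± 0.113. The order depends on the length used. With the length of the canonical transcript, EIF4E2 moved to 39.1 ± 8.43 CPM per kilobase and overlapped with EIF4E at 36.7 ± 11.3, since its annotated exons span 11481 bases and its canonical transcript 967. EIF4G2 (394.2 ± 31.05) and EIF4G1 (61.2 ± 14.1) remained the highest members, EIF4EBP2 was at 29.96 ± 2.73 as before, and EIF4A1 was again last at 1.49 ± 0.334. By the annotation matched here, EIF4A1 shares 2466 of its 5199 exon bases on the same strand with other genes. All 1758 bases of its canonical transcript are shared. Reads that fit several genes count for no gene, so the last place of EIF4A1 on either scale cannot be read as its level.

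EIF4A1, the member with the fewest counts, encodes the RNA helicase that unwinds the mRNA leader within eIF4F. It stood at 1.23, 1.75 and 3.15 CPM in the clone A1 libraries, at 1.24, 1.91 and 2.82 CPM in those of clone A4, and at 2.58, 3.22 and 2.05 CPM in those with the empty vector, from 35 to 165 counts a library. The gene lies on chromosome 17 at 7572824 to 7579006 on the plus strand of GRCh38. In GENCODE 44, all 1758 bases of its canonical transcript, in 11 exons, are shared on the same strand with exons of SENP3-EIF4A1 or ENSG00000264772. Reads that fit more than 1 gene are listed apart in the deposited tables, count for no gene, and made up 1.88% to 3.75% of each library. SENP3-EIF4A1 received 0 to 16 counts a library and ENSG00000264772 at most 1. EIF4A2, a closely related helicase encoded at another locus, had 81.1 to 248.5 times the counts per kilobase of exon in each library. The fitted log2 difference of EIF4A1 in the NCBP2 arm was -0.37 (95% interval -1.19 to 0.45). In GENCODE 44, 2466 of the 5199 exon bases of EIF4A1 are shared on the same strand. That release is not known to be the one used for counting, where on the gene the counts fall is not given in the tables, and the part of shared exons in the low counts was not tested.

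**Figure D3:**
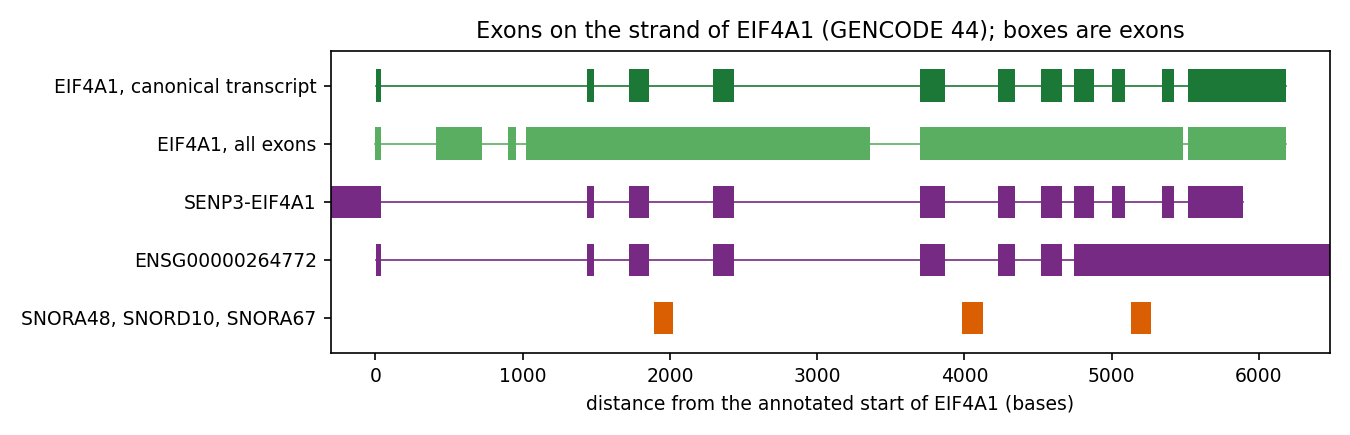
Exons (boxes) annotated on the strand of EIF4A1, drawn to scale by distance from its annotated start (bases); rows show the canonical transcript, all exons of the gene, the 2 overlapping genes on the same strand, cropped at the panel edges, and 3 small nucleolar RNA genes. Each of the 11 canonical exons is covered by an exon of an overlapping gene, which in GENCODE 44 leaves none of its 1758 bases to EIF4A1 alone.

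Small RNA genes that lie within the members gave few counts. SNORA48, SNORD10 and SNORA67, small nucleolar RNAs within EIF4A1, had 0 counts in all 9 libraries, and so did SNORD97 within EIF4G2. On the same strand they share 135, 142, 137 and 122 bases with exons of these members, by the annotation matched here. Reads that fit several genes count for no gene, so these counts of 0 cannot show whether the RNAs were absent. SNORD66 within EIF4G1 had 0 to 7 counts. MIR1256 within EIF4G3 had 59, 25 and 2 counts in the clone A1 libraries, at most 4 in those of clone A4 and at most 2 in vector, and did not pass the filter on low counts. Processed pseudogenes named after the members took 236 counts in all for the 13 of EIF4A1, against 871 for EIF4A1 itself, and 153 for the 5 of EIF4E, against 37128 for EIF4E.

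EIF4E and EIF4G1, the partners at the core of eIF4F, tended to vary in opposite directions over the 9 libraries, but not between all libraries of a clone. From clone A1 replicate B to C both rose (EIF4E 97.4 to 116.9 CPM, EIF4G1 313 to 340 CPM). From clone A4 replicate A to B both fell (EIF4E 105.5 to 93.6 CPM, EIF4G1 289.4 to 281.2 CPM). Vector replicate B had the lowest EIF4E (58.9 CPM) and the highest EIF4G1 (414.8 CPM), and clone A1 replicate A had the highest EIF4E (133 CPM) and the lowest EIF4G1 (160.7 CPM). Clone A4 replicate C resembled vector replicate B, with 79.7 CPM for EIF4E and 414.4 CPM for EIF4G1. Over the 9 libraries, Pearson's r of log2 CPM was -0.78 and Spearman's rho -0.63, and r was -0.59 over the 7 libraries without those 2 extremes. The ratio of EIF4G1 to EIF4E counts was lowest in clone A1 replicate A (1.21) and highest in vector replicate B (7.04), and its ranges overlapped among clone A1 (1.21 to 3.21), clone A4 (2.74 to 5.20) and vector (2.36 to 7.04). EIF4EBP1 varied with EIF4G1 (r 0.94, and 0.70 over 7 libraries without the 2 extremes of EIF4EBP1), and EIF4E3 against it (r -0.78, and -0.85 over 7 libraries without the 2 extremes of EIF4E3). These pairs were picked out after their values had been seen, from 45 pairs of members, and no test was made. All points share the same libraries and scaling.

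The levels of both genes also varied with a property of the libraries. The r with the percentage of reads not assigned to a gene was 0.69 for EIF4E and -0.79 for EIF4G1 over 9 libraries, and -0.27 and -0.23 over 7 libraries without clone A1 replicate A and vector replicate B. Those 2 libraries hold the highest and the lowest percentage, so leaving them out narrows its range. The r over 7 libraries therefore cannot show whether the relations rest on them. Spearman's rho over the 9 libraries was 0.38 for EIF4E and -0.55 for EIF4G1. For EIF4A1 the r was -0.89, and -0.86 over the 7 libraries. In the same order it was -0.57 and -0.82 for EIF4G2, 0.58 and 0.61 for EIF4G3, and -0.60 and -0.50 for EIF4E2. It was -0.72 and -0.31 for EIF4EBP1, -0.77 and -0.02 for EIF4ENIF1, and 0.41 and 0.03 for EIF4E3. Across 11415 protein-coding genes, which are not independent, the median r with this percentage was -0.16 with quartiles at -0.58 and 0.43, and it was lower for genes of higher GC content in the canonical transcript (correlation across genes -0.71). The GC content was 34.5% for EIF4E, a value below that of all but 1.07% of these genes, 37.3% for EIF4E3, 56.7% for EIF4G1 and 62.9% for EIF4EBP1. It was 43.4% for EIF4G2, 44.7% for EIF4EBP2, 46.3% for EIF4G3, 49.7% for EIF4A1, 50.4% for EIF4E2 and 51.0% for EIF4ENIF1. The median over these genes was 47.0%. EIF4G2 and EIF4EBP2 lay below that median although their r was negative (-0.57 and -0.70), and EIF4A1, with an r of -0.89, lay near it. The part of read assignment or GC content in these levels was not tested.

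**Figure D4:**
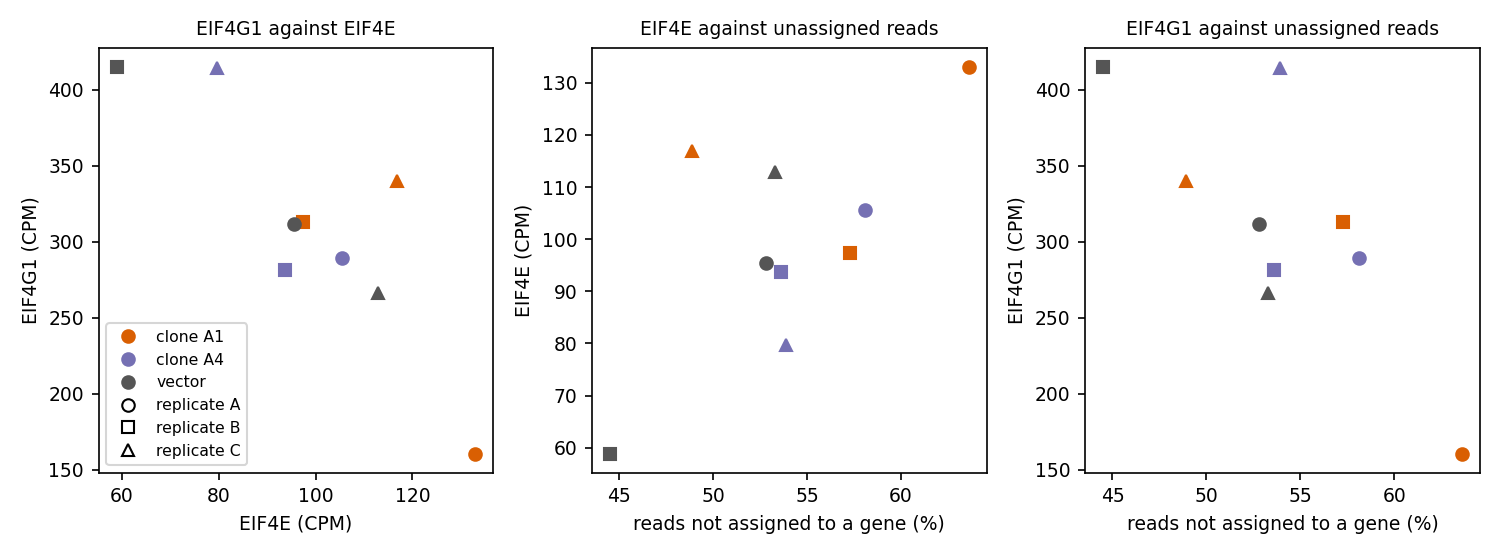
EIF4G1 against EIF4E (CPM, left) and each of them against the percentage of reads not assigned to a gene (middle and right), 1 point a library, coloured by group and shaped by replicate letter. Vector replicate B (58.9 CPM of EIF4E, 44.5% unassigned) and clone A1 replicate A (133 CPM, 63.6%) lie at opposite corners, and the other 7 libraries lie between them in EIF4E.

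Many other genes varied in the same way over the libraries. Of 11414 protein-coding genes with a mean log2 CPM of at least 1, ZC3H14 (r 0.986), RSBN1 (0.985) and UBE2Q2 (0.981) were most like EIF4E over the 9 libraries, and 311 genes (2.725%) had an r of at least 0.9 with it. Those most like EIF4G1 were PTPN23 (0.994), PPP1CA (0.993) and EIF3I (0.992), a subunit of the initiation factor eIF3, and 1150 genes (10.1%) reached 0.9. For EIF4EBP1 they were MEN1 (0.985), USP21 (0.983) and FARSA (0.981), with 519 genes (4.55%) at 0.9 or more. Without clone A1 replicate A, the r of these 9 genes lay between 0.940 and 0.984.

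The other genes of the pathway were read from 5 lists. None of their genes passed the threshold in any of the 4 comparisons by edgeR. DESeq2 called 1, DEPTOR, in clone A4 against clone A1 (adjusted p 0.00207 by DESeq2). The lists held 10 tested of 12 other eIF4 and poly(A)-binding genes, 13 of 15 other eIF4E partners and regulators, 16 of 16 genes of mTORC1 and MNK signalling, 33 of 33 other initiation factors, and 19 of 20 mRNAs described as eIF4E targets. The genes not tested were EIF4E1B, EIF4EBP3, HHEX, TRIM71 and UGT1A6, each with at most 5 counts in any library. At an unadjusted p under 0.05, the NCBP2 arm had 2, 2, 2, 2 and 1 genes of these lists in the same order. Clone A1 against vector had 2, 3, 2, 3 and 0, clone A4 against vector 3, 1, 2, 1 and 1, and clone A4 against clone A1 0, 1, 1, 2 and 1. Over all genes tested, these 4 shares were 5.71%, 7.51%, 5.25% and 6.63%.

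Among the eIF4 and poly(A)-binding genes, EIF4B, the cofactor that stimulates eIF4A, had the smallest p in the NCBP2 arm. It stood at 545.4 ± 34.25 CPM (SD, n = 3) in clone A1, 523.9 ± 29.7 in clone A4 and 668.9 ± 8.83 in vector, with a log2 difference of -0.32 in the NCBP2 arm (SE 0.111, adjusted p 0.633 by edgeR). PABPC1, the main cytoplasmic poly(A)-binding protein, differed by -0.49 in clone A4 (SE 0.156, adjusted p 0.57 by edgeR). The median log2 difference over the 10 tested genes of this list was -0.04 in the NCBP2 arm and 0.03 in clone A1, and it was -0.15 in clone A4, with 8 of 10 negative, beside 0.02, -0.02 and 0.03 over all genes tested.

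Among the partners of eIF4E, CYFIP2, a protein of the actin-regulating WAVE complex whose relative CYFIP1 binds eIF4E, differed by -0.81 in clone A1 against vector (SE 0.219, adjusted p 0.299 by edgeR), from 58.2 ± 17.6 CPM (SD, n = 3) against 102.3 ± 14.4. ANGEL1, an eIF4E-binding protein, differed by -0.51 in the NCBP2 arm (SE 0.173, adjusted p 0.633 by edgeR). The median of this list was -0.11 in the NCBP2 arm.

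In mTORC1 and MNK signalling, RHEB, the small GTPase that activates mTORC1, was at 67.2 ± 3.05 CPM (SD, n = 3) in clone A1, 68.2 ± 22.9 in clone A4 and 111.1 ± 24.2 in vector. Its log2 difference in the NCBP2 arm was -0.71 (SE 0.198, unadjusted p 0.00309, adjusted p 0.493 by edgeR). TSC1, part of the complex that inhibits RHEB, differed by 0.56 in clone A4 (SE 0.17, adjusted p 0.494 by edgeR), at 109.3 ± 12.7 CPM against 74.2 ± 1.74 in vector. DEPTOR, an inhibitor that binds mTOR, was at 2.445 ± 0.733 CPM in clone A1, 7.496 ± 2.32 in clone A4 and 4.56 ± 0.776 in vector. Its log2 difference of clone A4 from clone A1 was 1.62 (SE 0.355, unadjusted p 0.000625, adjusted p 0.169 by edgeR), the smallest p of any listed gene in the 4 comparisons.

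Among other initiation factors, EIF3J, a loosely attached subunit of eIF3, was at 170.1 ± 32.5 CPM (SD, n = 3) in clone A1, 106.5 ± 7.31 in clone A4 and 104.4 ± 22.1 in vector, a log2 difference of 0.70 in clone A1 (SE 0.198, adjusted p 0.321 by edgeR). EIF2B2, a subunit of the exchange factor of eIF2, differed by -0.50 in the NCBP2 arm (SE 0.159, adjusted p 0.568 by edgeR). The 33 factors had a median of -0.02 in the NCBP2 arm, with 16 positive and 17 negative. Among mRNAs described as eIF4E targets, PIM1, a kinase, differed by -0.34 in the NCBP2 arm (SE 0.151, adjusted p 0.838 by edgeR), and the 19 mRNAs had a median of -0.02. MDM2, the p53 ubiquitin ligase, had the smallest p in clone A1 (-0.28, adjusted p 0.766 by edgeR), and CCND1, cyclin D1, had it between the clones (0.41, adjusted p 0.749 by edgeR). RNA levels of these targets carry no measure of their translation.

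**Figure D5:**
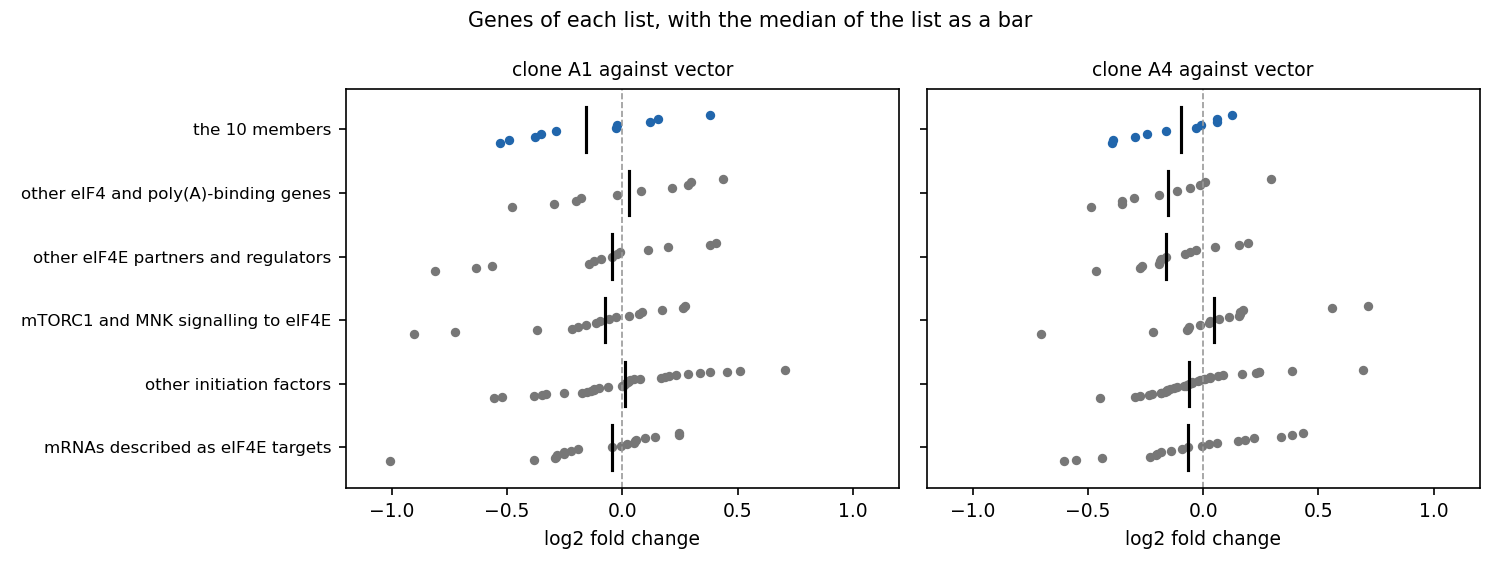
Fitted log2 fold change (x axis) of each tested gene in the set of 10 members (blue) and in the 5 pathway lists (grey), in clone A1 (left) and clone A4 (right) against vector, with a bar at the median of each list. The medians lie between -0.16 and 0.05 and the genes of each list fall on both sides of 0; the panels share the vector libraries.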

How the data were processed

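RNA sequencing of 9 U2-OS libraries was read from the deposited tables, which hold raw counts of reads per gene, unscaled, as whole numbers. Per the submitters' processing notes, STAR 2.7.1a and GRCh38 were used. The counting settings and the annotation release are not given in the sources used here. The labels name polyadenylated RNA as the molecule, whereas the titles and the protocol name ribosomal RNA depletion. As the values show, stranded counts in the gene's direction are in column 3, those in the other direction (5.51% to 6.42% of both) in column 4, and unstranded ones in column 2. The 4 lines without a gene were removed, and reads with several alignments, left out of the counts, were 6.8% to 16.3% of reads.

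Of 60609 identifiers, 60295 were matched without their version to GENCODE 44, which gave symbols, coordinates and exon lengths and is not known to be the release behind the counts: of the 10 members' identifiers, 6 have another version number there. Groups follow the titles. Tests used edgeR 4.0.16 (R 4.3.3): filterByExpr, TMM, robust quasi-likelihood fits, and Benjamini-Hochberg adjustment over 21682 genes with a threshold of 0.05. A fit with 2 groups gave the NCBP2 arm, and a fit with 3 groups, sharing 1 spread over 9 libraries, gave the clones. CPM used TMM-scaled library sizes, and log2 CPM, used for spreads and correlations, a prior count of 2. Intervals are 95% from the fits. Alternatives were DESeq2 1.42.0, other scaling, filter, strand and block choices, counts summed per clone, each clone comparison fitted alone, each library left out, and a covariate added after the data were seen.

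The members, lists and naming rule were chosen with earlier results of these data known. Named genes are the 10 members, NCBP2, for each list the gene with the smallest p in each comparison, the 3 genes most like EIF4E, EIF4G1 and EIF4EBP1, and genes on the same strand within members. Promoter windows are RefSeq's.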

Additional observations from a re-analysis of the deposited data

Results flagged for a closer look

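Within the 6 NCBP2 libraries, EIF4ENIF1 was at 22.17 CPM in clone A1 replicate A and at 39.2 to 45.3 CPM in the other 5. The gap from the lowest value to the next was 0.737 of the whole range, above Dixon's 95% critical value of 0.625 for 6 samples. Chance marks about 1 in 20 groups in this way, and 11 genes were looked at. The same library held the highest share of counts on the opposite strand at EIF4ENIF1 (37%) and of reads not assigned to a gene (63.6%), and the part of either was not tested.

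Counts on the opposite strand, which the main comparisons did not use, were seen at EIF4E2. There they made up 1.2% of stranded counts on average in the NCBP2 libraries (0.833% to 1.73%) and 0.465% to 0.790% in the vector libraries, with no overlap of the groups. EIF4E2 was the only 1 of 10 members of which this held, beside 1.64% of the 10030 tested genes with a count on the opposite strand in every library. EIF4E3, with 0 such counts in clone A1 replicate B, falls outside those 10030 genes. These shares rest on 7 to 31 counts a library, and the difference was not tested.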

How the results depend on the processing

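No member was called in any comparison under any of the 16 alternatives run for it, and of 640 member values 41 changed sign, all of them values that did not pass the threshold. Numbers of calls over all genes moved far more. In the NCBP2 arm against vector 4 genes were called by edgeR, but 103 by DESeq2, 20 with no filter, 13 with the replicate block, 14 with the covariate (the share of reads not assigned to a gene, chosen after the data were seen), and 0 with counts summed per clone, where 906 had an unadjusted p under 0.05. In clone A1 against vector 14 became 274 by DESeq2, 312 with no filter, 38 with the block, 37 with the covariate and 7 with only the 6 libraries compared. In clone A4 against vector 25 became 185 by DESeq2, 163 with no filter, 53 with the block and 79 with the covariate. In clone A4 against clone A1 35 became 246 by DESeq2, 231 with no filter, 102 with the covariate and 51 with the block. The replicate block pairs samples by letters that the labels tie to no shared culture or day. Deviations from the group means correlated at -0.102 to 0.179 over 9 same-letter pairs, with 6 over 0.1, and at -0.271 to 0.221 over 18 other pairs, with 4 over 0.1. Of 18 best matches tried, 8 were to the own letter. Not every same-letter pair was over 0.1, so letters were not used as pairs, and the block changed no member's call. Leaving out 1 library at a time gave 1 to 8, 3 to 14, 7 to 41 and 10 to 56 calls in the 4 comparisons. The lowest count in the NCBP2 arm came without vector replicate A and the highest without clone A1 replicate A (8), which also gave the highest count in clone A4 against vector (41). Without vector replicate B the count between the clones was 56, and without clone A4 replicate A it was 10.

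The covariate turned the sign of EIF4EBP1 (0.32), EIF4G1 (0.24) and EIF4A1 (0.08) in the NCBP2 arm, of EIF4G1 (0.10), EIF4G2 (0.09) and EIF4A1 (0.13) in clone A1, and of EIF4E (-0.10), EIF4EBP1 (0.60), EIF4G1 (0.34), EIF4A1 (0.04) and EIF4ENIF1 (0.04) in clone A4, on the log2 scale. The cause was not tested. With 1 library left out, log2 values that changed sign ran from -0.02 to 0.28 (EIF4E2) and -0.30 to 0.05 (EIF4G1) in the NCBP2 arm. In clone A1 against vector they ran from -0.01 to 0.31 (EIF4E2), -0.19 to 0.11 (EIF4E3) and -0.16 to 0.04 (EIF4G2). In clone A4 against vector they ran from -0.17 to 0.25 (EIF4E), -0.06 to 0.25 (EIF4E2), -0.58 to 0.26 (EIF4EBP1) and -0.23 to 0.18 (EIF4G1). Between the clones they ran from -0.18 to 0.07 (EIF4E2), -0.05 to 1.11 (EIF4EBP1), -0.09 to 0.14 (EIF4EBP2), -0.08 to 0.02 (EIF4G3) and -0.40 to 0.42 (EIF4A1). NCBP2 in clone A1 against vector (1.65 to 1.78) no longer passed the threshold when any 1 of these was left out: clone A1 replicates B and C, clone A4 replicate A and vector replicates A, B and C. Between the clones it passed without clone A4 replicate C (1.51). Depth limits EIF4A1 (35 to 165 counts) and EIF4EBP1 (71 to 1162), and counting error is the only error that depth shows.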

Other observations

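EIF4E2 shares 1194 exon bases with ENSG00000237126, a gene on the opposite strand that had 0 to 16 counts a library. Without regard to strand, EIF4E2 had 19.0% to 30.0% fewer counts than on its own strand. EIF4ENIF1 had between 32.1% more and 4.35% fewer.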
